A study of Mus musculus with 9 samples.

Results

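Guanylate-binding proteins (GBPs) and immunity-related GTPases (IRGs) are large GTPases that cells make in quantity after exposure to interferon-gamma. Their transcripts were followed in CD11b+ myeloid cells sorted from mouse brains bearing GL261 gliomas. The members were 10 genes taken by symbol from the deposited table of 53801 genes: Gbp2, Gbp3, Gbp4, Gbp5, Gbp7, Gbp9, Igtp, Irgm1, Irgm2 and Iigp1. All 10 were found, and all 10 were among the 12538 protein-coding genes with enough counts to be tested.

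Male C57BL/6J mice, 10 to 12 weeks old at the start, received GL261 tdTomato+luc+ cells, a glioma line of the same strain, in the right striatum. OAT-1746, an oral arginase inhibitor, was given by gavage at 50 mg/kg, 2 doses a day from day 1. The antibody against PD-1, a checkpoint receptor of lymphocytes, was injected intraperitoneally at 2.5 mg/kg in 4 injections between day 8 and day 14. Libraries came from 2 CTR (saline), 2 OAT-1746, 2 anti-PD-1 and 3 COMB samples, where COMB received both agents. The study's methods put cell collection at day 28 and a legend puts it at day 21. For replicate 2 of the anti-PD-1 group the treatment field reads anti-PD-2 and the title anti-PD-1, and the title was used. The study's methods call the libraries biological replicates, and no source used here states whether each came from 1 animal or a pool. The p-values measure the spread between these libraries.

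Interferon-gamma, released mainly by NK and T cells, binds a receptor of Ifngr1 and Ifngr2 chains and activates the kinases JAK1 and JAK2. Promoters of its target genes carry GAS elements, and it induces the transcription factor IRF1, which binds interferon-stimulated response elements (ISREs). GBPs and IRGs then assemble on the vacuoles that hold intracellular microbes. In macrophages and microglia their transcripts are a widely used readout of interferon-gamma, although type I interferons induce several of them as well.

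The authors aligned reads to mm10, counted read pairs per gene and deposited raw counts. Library totals were 17490386 and 17729568 counts in CTR, 17380045 and 16784406 in OAT-1746, 14356928 and 18796479 in anti-PD-1, and 13048075, 16144518 and 14806017 in COMB. Levels are given as CPM, counts scaled by the library totals after TMM normalization. The lowest count of any member in any library was 312 and the highest 18084.

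One library stood apart. Over the log2 CPM of all tested genes, Pearson's r between OAT-1746 replicate 2 and each of the remaining 8 libraries was 0.911 to 0.956, while pairs among those 8 reached 0.960 to 0.989. It also held the lowest level of the 9 libraries for 10 of 10 members. Their summed level was 815 CPM there and 2110 CPM in OAT-1746 replicate 1. Medians in OAT-1746 against CTR, in COMB against OAT-1746 and in the interaction are therefore given for the members with and without this library, and values of single genes of the other lists include it unless stated.

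Promoter sequence was examined because the members are known as targets of the same factors. RefSeq promoters (build GRCm38.p6, from 250 bases before to 50 bases after the start of a gene) were at hand for 7 of the 10 members. Gbp4, Gbp9 and Iigp1 had no entry. Both strands were searched for an ISRE core, GAAANNGAAA or its reverse complement TTTCNNTTTC, and for a GAS element, TTCNNNGAA, which is its own reverse complement. The ISRE core was present in 7 of 7 member genes, against 3.44% of 32851 promoters of the same length, and GAS in 4 of 7 (Gbp5, Gbp7, Igtp and Irgm2), against 8.30%. In Gbp3 the match lay in 1 of its 2 promoter entries. Of the 10 other GBP and IRG genes with a promoter entry, 6 held the ISRE core and 4 held GAS. No ISRE and GAS match overlapped in a member promoter (0 cases). A match describes letters only and does not show that a factor binds.

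The stretches below show the match in the member with the highest level (Gbp2), in a GBP with both motifs (Gbp7) and in the neighboring genes Igtp and Irgm2. Each has 90 bases, runs 5′ to 3′ on the + strand of GRCm38.p6, and has ISRE core and GAS matches in capitals. The Gbp2 stretch lies at chr3:142620564-142620653, with 38 bases before the gene in GENCODE M21 and 52 bases in an exon. The Gbp7 stretch, at chr3:142530243-142530332, lies wholly before the gene. The Igtp stretch, at chr11:58199482-58199571, has 74 bases before the gene and 16 in an exon. The Irgm2 stretch, at chr11:58214873-58214962, lies in an intron of the annotated gene, which has a start further upstream. The Igtp and Irgm2 stretches were identical at 88 of 90 bases, and in both the ISRE core was followed outward by a GAS match (34 and 45 bases before the start in Igtp, 64 and 75 in Irgm2).
Gbp2: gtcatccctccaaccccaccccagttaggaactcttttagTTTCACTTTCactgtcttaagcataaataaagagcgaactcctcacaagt
Gbp7: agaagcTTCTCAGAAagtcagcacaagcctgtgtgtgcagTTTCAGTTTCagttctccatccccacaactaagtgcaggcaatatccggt
Igtp: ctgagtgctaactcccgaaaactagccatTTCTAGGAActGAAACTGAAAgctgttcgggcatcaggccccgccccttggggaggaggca
Irgm2: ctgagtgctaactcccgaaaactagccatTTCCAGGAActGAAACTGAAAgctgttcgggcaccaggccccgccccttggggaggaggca

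The members lie in clusters. Gbp2, Gbp3, Gbp5 and Gbp7 are on chromosome 3, Gbp4 and Gbp9 on chromosome 5, Igtp, Irgm1 and Irgm2 on chromosome 11, and Iigp1 on chromosome 18. Near-identical copies and overlapping exons can cost a gene reads, since pairs that fit more than 1 gene are dropped or left unassigned in the authors' counting. Exons of Igtp and Irgm2 overlap each other (8.01% and 4.39% of their exon bases), and 11.3% of the exon bases of Gbp7 are shared with the annotated gene Gm43802. Windows of 50 bases, starting at every base, were taken from each member's longest protein-coding transcript only. The share also found in another gene ran from 0.815% in Irgm1 to 12.8% in Gbp7 and Gbp4, and was 12.3% in Igtp. By these measures, which leave out the other transcripts, levels of Gbp4, Gbp7 and Igtp are the least certain.

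Levels per kb used the exon bases of all annotated transcripts of a gene joined, less those shared with another gene. For Irgm1 this was 5.81 kb, while its longest protein-coding transcript held only 2210 of the 50-base windows. Division by transcript length was not done and could give another order. Per kb of exon, Gbp2 was the most abundant member. In CTR it had 285 ± 7.18 CPM per kb (SD, n = 2), followed by Igtp at 78.1 ± 5.52 and Gbp3 at 73.0 ± 3.75 CPM per kb, whose libraries overlapped. Irgm1 had 43.2 ± 1.17 and Irgm2 29.0 ± 0.383 CPM per kb, each apart from its neighbors in the order except that Irgm2 lay within the range of Iigp1. Below these, Iigp1 (24.2 ± 9.92), Gbp5 (22.7 ± 4.29), Gbp9 (20.3 ± 3.42) and Gbp7 (19.1 ± 6.99 CPM per kb) overlapped, and Gbp4 was lowest at 9.61 ± 1.64 CPM per kb.

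Among the GBPs, which coat pathogen vacuoles and the surface of cytosolic bacteria, Gbp2 had 729 and 703 CPM in the CTR libraries, 854 and 195 in OAT-1746, 948 and 1019 in anti-PD-1, and 569, 1086 and 1267 in COMB. Both anti-PD-1 libraries lay above both CTR libraries, while OAT-1746 and COMB each had a library on either side of CTR. The CTR group averaged 716 ± 18.1 CPM (SD, n = 2), OAT-1746 525 ± 466 CPM (SD, n = 2), anti-PD-1 984 ± 50.1 CPM (SD, n = 2) and COMB 974 ± 362 CPM (SD, n = 3). Gbp3 had 247 and 229.8 CPM in CTR, 218 and 71.6 in OAT-1746, 211 and 284 in anti-PD-1, and 158, 278 and 284 in COMB. Both OAT-1746 libraries were below both CTR libraries, and the antibody groups spanned CTR. Gbp4 had 80.1 and 62.8 CPM in CTR, 70.0 and 17.9 in OAT-1746, 59.2 and 132 in anti-PD-1, and 55.8, 128 and 139 in COMB. Its highest library was 7.77 times its lowest, the widest range of the 10 members.

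Gbp5, a GBP linked to inflammasome assembly, had 171 and 130.3 CPM in CTR, 139 and 80.9 in OAT-1746, 152 and 234 in anti-PD-1, and 118, 179 and 198 in COMB. Gbp7 had 119.8 and 70.6 CPM in CTR, 99.2 and 53.8 in OAT-1746, 73.9 and 174 in anti-PD-1, and 87.1, 66.1 and 122 in COMB. Gbp9 had 116 and 91.5 CPM in CTR, 98.6 and 54.3 in OAT-1746, 85.1 and 123 in anti-PD-1, and 71.3, 95.2 and 101 in COMB. For these 3 genes no treated group was wholly above or below CTR, and the anti-PD-1 replicates lay apart, with replicate 2 the highest of the 9 libraries in each.

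Irgm1, Irgm2 and Igtp (also called Irgm3) are the regulatory IRGs, which sit on the cell's own membranes and hold the effector IRGs inactive there. Igtp had 153 and 138 CPM in CTR, 152 and 93.3 in OAT-1746, 288 and 250.4 in anti-PD-1, and 149.97, 280.3 and 282 in COMB. The 2 anti-PD-1 libraries and COMB replicates 2 and 3 formed the upper range, whereas COMB replicate 1 lay between the CTR libraries. The CTR group averaged 145 ± 10.3 CPM (SD, n = 2), OAT-1746 123 ± 41.4 CPM (SD, n = 2), anti-PD-1 269 ± 26.5 CPM (SD, n = 2) and COMB 237 ± 75.8 CPM (SD, n = 3). Irgm1 was likewise highest in these 4 libraries, with 256 and 246 CPM in CTR, 268 and 128 in OAT-1746, 374 and 332 in anti-PD-1, and 211, 421 and 397 in COMB. Irgm2 varied least of the 10 members, by 1.72 times between its lowest and highest library. It had 103 and 101 CPM in CTR, 119.8 and 78.6 in OAT-1746, 115 and 106 in anti-PD-1, and 83.8, 135 and 119.5 in COMB.

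Iigp1 (Irga6) is an effector IRG that is loaded onto vacuole membranes. It had 182 and 99.9 CPM in CTR, 91.6 and 41.3 in OAT-1746, 101 and 151 in anti-PD-1, and 94.1, 261 and 258 in COMB. Both OAT-1746 libraries were below both CTR libraries and below all 3 COMB libraries. The CTR libraries themselves differed by 1.82 times, the widest gap between CTR replicates of the 10 members. The CTR group averaged 141 ± 57.8 CPM (SD, n = 2), OAT-1746 66.4 ± 35.5 CPM (SD, n = 2), anti-PD-1 126 ± 35.4 CPM (SD, n = 2) and COMB 204 ± 95.5 CPM (SD, n = 3).

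**Figure D1:**
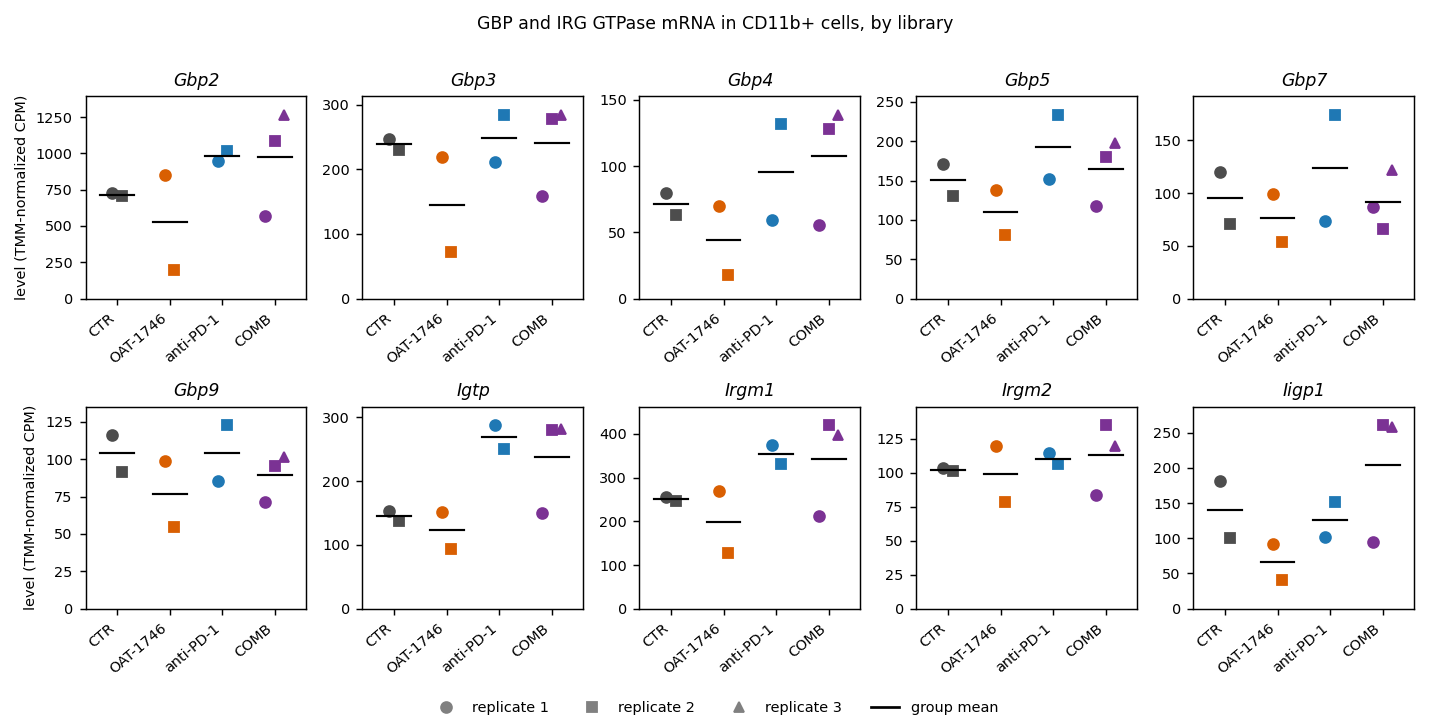
Level of each member in each of the 9 libraries, in TMM-normalized CPM, with libraries coloured by group. For all 10 members OAT-1746 replicate 2 is the lowest point, and COMB replicate 1 lies below COMB replicate 3 for each member.

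Between replicates 1 and 2 the median fold over the members was 1.19 in CTR (1 over 2), 1.97 in OAT-1746 (1 over 2) and 1.39 in anti-PD-1 (2 over 1). In anti-PD-1 the regulatory IRGs Igtp, Irgm1 and Irgm2 went the other way, at 0.870, 0.888 and 0.926. OAT-1746 replicate 1 exceeded replicate 2 for 10 of 10 members, by 1.52 times (Irgm2) to 4.38 times (Gbp2). COMB replicate 3 exceeded COMB replicate 1 for 10 of 10, by 1.40 times (Gbp7) to 2.74 times (Iigp1). As log2 differences from the CTR mean, the members' median was 0.023 in OAT-1746 replicate 1 and -0.95 in replicate 2. It was -0.073 and 0.46 in anti-PD-1 replicates 1 and 2, and -0.33, 0.50 and 0.54 in the COMB replicates 1, 2 and 3. The same median over all 12538 tested genes stayed between -0.040 and 0.035 in these libraries.

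**Figure D2:**
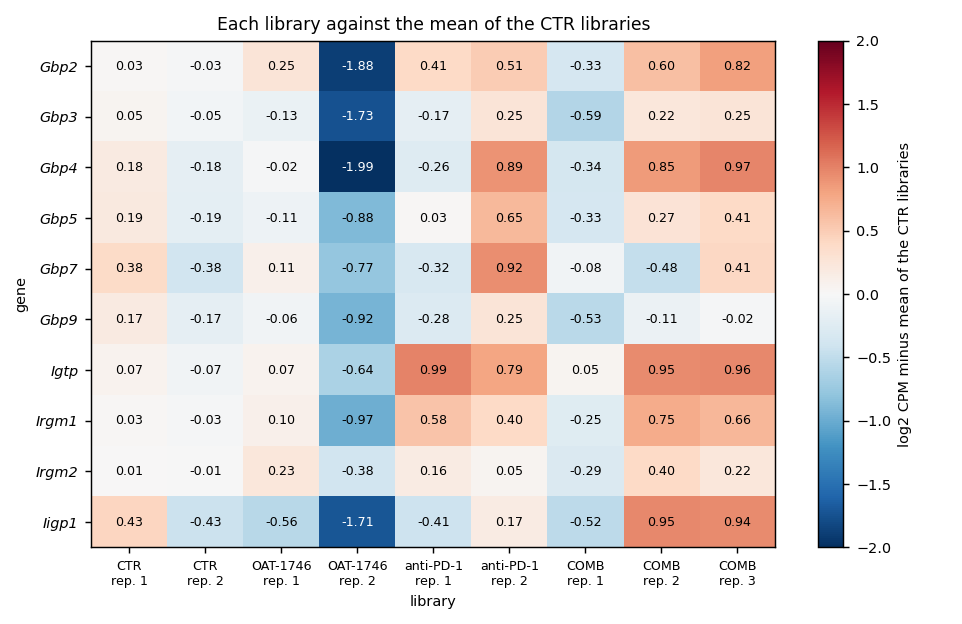
Log2 difference of each member from the mean of the CTR libraries, by library. In OAT-1746 replicate 2 all 10 members lie below 0, from -1.99 (Gbp4) to -0.38 (Irgm2), while in OAT-1746 replicate 1 they lie on both sides, from -0.56 (Iigp1) to 0.25 (Gbp2).

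The first comparison asked whether arginase inhibition alone moved the GTPases. All 10 members had a negative log2 fold change between OAT-1746 and CTR, with a median of -0.45 beside 0.0080 over all tested genes, and none passed the test. By size, Iigp1 came first at -1.08 (standard error 0.54, edgeR quasi-likelihood adjusted p = 0.191), then Gbp3 at -0.72 (standard error 0.46, adjusted p = 0.297) and Gbp4 at -0.70 (standard error 0.63, adjusted p = 0.452). Igtp had -0.24 (standard error 0.32) and Irgm2 -0.046 (standard error 0.25, and 0.034 when libraries were scaled by total count only).

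In this comparison edgeR called 0 of 12538 genes (0%) and 0 members at an adjusted p under 0.05. At an unadjusted p under 0.05 it had 4049 genes (32.3%) and 0 members, and DESeq2 called 1996 genes (15.9%) and 0 members. Each OAT-1746 library was lower than each CTR library in 2 members (Gbp3 and Iigp1) and 32.1% of all genes, and higher in 0 members and 30.8%. Without OAT-1746 replicate 2 the members' median was 0.026, and log2 fold changes of Gbp2, Gbp7, Igtp, Irgm1 and Irgm2 were above 0. In that fit Iigp1 had -0.61, Gbp3 -0.12 and Gbp4 -0.018. Without OAT-1746 replicate 1 the median was -0.96, and edgeR then called 4 members lower (Gbp2, Gbp3, Gbp4 and Gbp9) beside 3617 of 12847 genes (28.2%), a comparison that rests on 1 OAT-1746 library.

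The second comparison asked about PD-1 blockade alone. The regulatory IRG Igtp had the largest log2 fold change of anti-PD-1 over CTR, 0.89 (standard error 0.32, 1.85-fold, 95% interval 0.16 to 1.62, edgeR quasi-likelihood adjusted p = 0.951), and both anti-PD-1 libraries were above both CTR libraries. Irgm1 followed at 0.49 (standard error 0.38) and Gbp2 at 0.46 (standard error 0.57), whereas Iigp1 had -0.16 (standard error 0.53) and Gbp9 0.0025 (standard error 0.30). Positive values were found for 9 of 10 members, with a median of 0.37 beside 0.022 over all genes. None passed the test.

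Of all genes, edgeR called 0 (0%) between anti-PD-1 and CTR and 0 members. At an unadjusted p under 0.05 it had 642 genes (5.12%) and 1 member, Igtp, and DESeq2 called 14 genes (0.112%) and 0 members. Every anti-PD-1 library was above every CTR library for 4 members (Gbp2, Igtp, Irgm1 and Irgm2) and 20.6% of all genes, and below for 0 members and 16.9%. The members' median rested on anti-PD-1 replicate 2. Without it the median was -0.086, and Gbp4 and Gbp7 had log2 fold changes of -0.28 and -0.37, but Igtp stayed positive whichever library was left out.

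The third comparison set the combination against CTR. Igtp again had the largest value, a log2 fold change of 0.71 (standard error 0.30, 1.63-fold, edgeR quasi-likelihood adjusted p = 0.752), with COMB replicate 1 between the CTR libraries. Gbp4 had 0.59 (standard error 0.58), Iigp1 0.54 (standard error 0.49), Irgm1 0.45 (standard error 0.35) and Gbp2 0.44 (standard error 0.53). Gbp7 and Gbp9 had -0.052 and -0.22. The median of the members was 0.29, beside -0.0048 over all genes, with 8 of 10 above 0.

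In COMB against CTR, edgeR called 0 genes (0%) and 0 members. At an unadjusted p under 0.05 it had 825 genes (6.58%) and 1 member (Igtp), and DESeq2 called 35 genes (0.279%) and 0 members. No member (0 of 10) had every COMB library above or below every CTR library, which 12.1% and 15.8% of all genes did. Leaving out COMB replicate 1 raised the members' median to 0.49, and leaving out CTR replicate 2 lowered it to 0.15. The 3 comparisons with CTR share the same 2 CTR libraries and are not independent of each other.

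**Figure D3:**
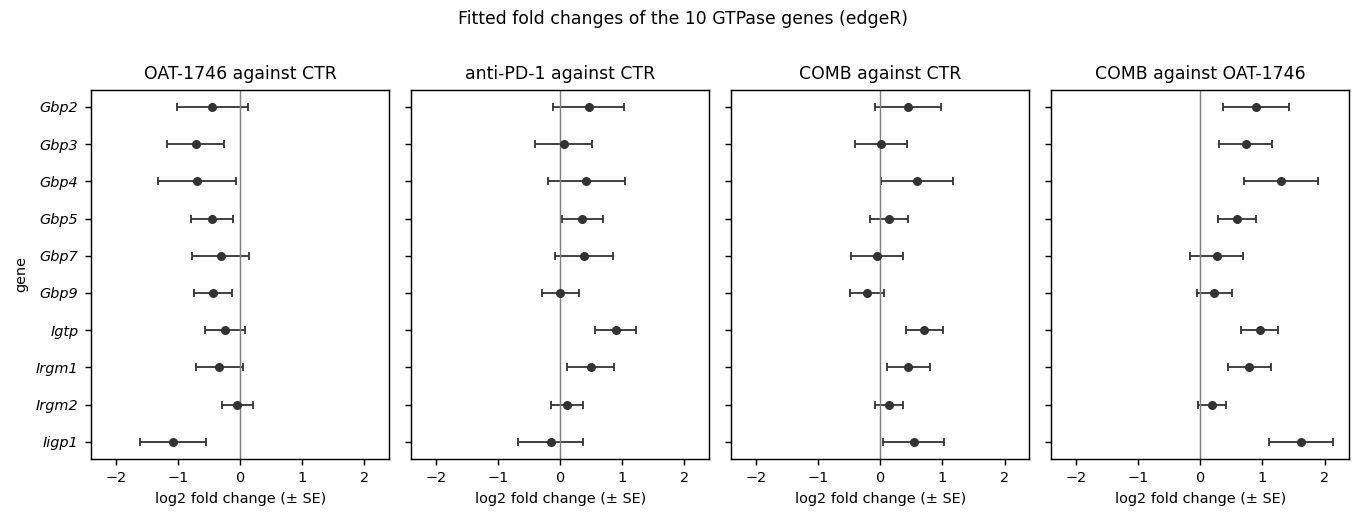
Log2 fold change of each member in the 3 contrasts with CTR and in COMB against OAT-1746, from edgeR, with bars of 1 standard error. Igtp has the largest value in anti-PD-1 and in COMB against CTR, Iigp1 has the largest in COMB against OAT-1746, and the adjusted p-values of all members were above 0.05 in every contrast.

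The next comparison asked what adding OAT-1746 to the antibody did. COMB and anti-PD-1 had similar means for most members, such as 974 and 984 CPM for Gbp2 and 343 and 353 CPM for Irgm1. Iigp1 had the largest log2 difference, 0.69 (standard error 0.49, edgeR quasi-likelihood adjusted p = 0.788), and Gbp7 the lowest at -0.44 (standard error 0.42). The 95% interval of Igtp, -0.84 to 0.48, leaves room for a difference in either direction, so that the groups are not shown to be alike. The median was -0.044, against -0.0093 over all genes, and its sign depended on the libraries kept (0.20 without COMB replicate 1, 0.10 without anti-PD-1 replicate 2, and -0.19 without COMB replicate 2). edgeR called 0 genes (0%) and 0 members, had 907 genes (7.23%) and 0 members at an unadjusted p under 0.05, and DESeq2 called 47 genes (0.375%) and 0 members.

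With all libraries in the fit, adding the antibody to OAT-1746 gave the members' largest median of the 6 comparisons, a rank that was lost without OAT-1746 replicate 2 (0.23, beside 0.36 for anti-PD-1 and 0.31 for COMB against CTR in that fit). All 10 members had a positive log2 fold change between COMB and OAT-1746, with a median of 0.76 beside 0.0029 over all genes. Iigp1 had 1.62 (standard error 0.51, 3.08-fold) and an edgeR quasi-likelihood adjusted p of 0.0590, and all 3 COMB libraries were above both OAT-1746 libraries. Igtp had 0.95 (standard error 0.30, 1.94-fold, adjusted p = 0.0596 in edgeR). DESeq2 called both, with adjusted p-values of 0.00502 for Iigp1 and 0.0133 for Igtp. Gbp4 had 1.29 (standard error 0.59), Gbp2 0.89 (standard error 0.54) and Irgm1 0.79 (standard error 0.35), with edgeR adjusted p-values from 0.137 to 0.253. Without OAT-1746 replicate 2 the log2 fold changes of Gbp4, Gbp2 and Irgm1 were 0.63, 0.20 and 0.36. Those of Iigp1 and Igtp were then 1.17 and 0.65.

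These values must be read against a background in which much of the transcriptome differed. In COMB against OAT-1746, edgeR called 1979 of all genes (15.8%) and 0 members, had 4651 (37.1%) and 2 members at an unadjusted p under 0.05, and DESeq2 called 3062 (24.4%) and 2 members. Every COMB library was above every OAT-1746 library for 1 member (Iigp1) and 25% of all genes. In some other fits edgeR called far fewer genes. It called 14 without COMB replicate 2, 5 without COMB replicate 3 and 30 in a fit of only the groups compared. With the replicate number as a block it called 2. Without OAT-1746 replicate 2 the members' median was 0.23, with 0 members and 27 genes called by edgeR, and Gbp7, Gbp9 and Irgm2 had negative values (-0.099, -0.13 and -0.075). Without OAT-1746 replicate 1 it was 1.39, with 7 members called beside 4033 of 12847 genes (31.4%), and without COMB replicate 1 edgeR called 3 members (Igtp, Irgm1 and Iigp1) beside 2923 of 12481 genes (23.4%).

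The interaction, the OAT-1746 effect with the antibody (COMB against anti-PD-1) minus that without it (OAT-1746 against CTR), was largest for Iigp1. Its value was 1.78 on the log2 scale (standard error 0.73, edgeR quasi-likelihood adjusted p = 0.169, 0.0704 in DESeq2). Igtp had 0.064 (standard error 0.44), Gbp7 -0.12 (standard error 0.63), and the median of the members was 0.27, against -0.023 over all genes. edgeR called 45 genes (0.359%) and 0 members, had 3281 genes (26.2%) and 1 member at an unadjusted p under 0.05, and DESeq2 called 1025 (8.18%) and 0 members. Without OAT-1746 replicate 2 the members' median was -0.13, and without OAT-1746 replicate 1 it was 0.83, with 3 members called (Gbp2, Gbp3 and Iigp1) beside 2734 of 12847 genes (21.3%).

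A test of any difference among the 4 groups gave Igtp the lowest adjusted p of the members (0.125 by edgeR's quasi-likelihood method), followed by Iigp1 (adjusted p = 0.203). edgeR called 24 genes (0.191%) and 0 members in this test, and had 3467 genes (27.7%) and 1 member at an unadjusted p under 0.05. It was not run in DESeq2.

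Of the 19 other GBP and IRG genes in the table, 17 were tested and 0 were called by edgeR in any comparison. Their medians were -0.50 for OAT-1746, 0.19 for anti-PD-1 and 0.15 for COMB, each against CTR, and 0.84 for COMB against OAT-1746. Leaving out OAT-1746 replicate 2 gave 0.010 for OAT-1746 against CTR and 0.29 for COMB against OAT-1746. With all libraries, in that last comparison 3 of them (Gbp10, Ifi47 and Gm4951) were under an unadjusted p of 0.05, beside 37.1% of all genes. DESeq2 called 2 there, Gbp10 and Gm4951, beside 24.4% of all genes. Between OAT-1746 and CTR only Irgq, a divergent IRG-like gene, had an unadjusted p under 0.05, beside 32.3% of all genes. Its log2 fold change was 0.53 (standard error 0.23). In COMB against CTR only Gm4841 of the list had that p (log2 fold change 1.18, standard error 0.51), beside 6.58% of all genes. Ifi47, an effector-type IRG and the most abundant of this list, had 181 and 155 CPM in CTR, 145 and 26.0 in OAT-1746, 322 and 230.2 in anti-PD-1, and 136, 279 and 260 in COMB. Like the members it was lowest in OAT-1746 replicate 2. Tgtp2, another effector IRG, had 82.1 and 67.2 CPM in CTR, 80.3 and 25.4 in OAT-1746, 109 and 112 in anti-PD-1, and 55.5, 123 and 113 in COMB, so that COMB replicate 1 was again below its group.

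Upstream of the GTPases, the cytokine transcript itself was near the floor of detection. Ifng had 4 and 3 counts in CTR, 1 and 1 in OAT-1746, 12 and 4 in anti-PD-1, and 6, 12 and 10 in COMB. A fold against OAT-1746 is not given, since both libraries were at or under 3 counts. edgeR called Ifng higher in COMB than in OAT-1746 (adjusted p = 0.0425), DESeq2 gave it no adjusted p, and the call was lost in 14 of 19 alternatives. CD11b+ cells include some NK cells, and the source of these reads was not tested.

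The receptor chain Ifngr1 had 380 and 507 CPM in CTR, 578 and 700.4 in OAT-1746, 526 and 409 in anti-PD-1, and 599, 484 and 450.3 in COMB. Its log2 fold change between OAT-1746 and CTR was 0.53 (standard error 0.23, adjusted p = 0.146 in edgeR). With all libraries in the fit this was opposite in sign to all 10 members. Without OAT-1746 replicate 2, Gbp2, Gbp7, Igtp, Irgm1 and Irgm2 were above 0 as well. Ifngr2 had -0.34 (standard error 0.16) in the same contrast with all libraries. The feedback inhibitor Socs1 had 34.1 and 18.6 CPM in CTR, 17.4 and 12.1 in OAT-1746, 62.4 and 49.3 in anti-PD-1, and 18.4, 51.3 and 49.3 in COMB. In anti-PD-1 against CTR it had 1.08 (standard error 0.46, adjusted p = 0.951 in edgeR). Irf1 had 0.42 (standard error 0.27) in anti-PD-1 and -0.12 (standard error 0.24) in COMB, both against CTR.

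Of the 19 ligand, receptor and signalling genes, edgeR called 0 in the comparisons with CTR. At an unadjusted p under 0.05 there were 2 for OAT-1746 (Ifngr1 and Pias1, both higher), 1 for anti-PD-1 (Socs1, higher) and 0 for COMB, and DESeq2 called 1, 0 and 0. Of all genes, 32.3%, 5.12% and 6.58% had that p, and DESeq2 called 15.9%, 0.112% and 0.279%. Between COMB and OAT-1746 edgeR called 2, beside 15.8% of all genes. Ifng was higher, and Pias1, an inhibitor of cytokine signalling, fell by 0.63 on the log2 scale (standard error 0.16, adjusted p = 0.0361 in edgeR), a call lost in 9 of 20 alternatives, with an adjusted p of 0.254 without OAT-1746 replicate 2. Socs1 had 1.43 (standard error 0.44), with an adjusted p of 0.0560 by edgeR and 0.00706 by DESeq2.

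Other genes known as interferon-gamma targets, among them MHC class II and the immunoproteasome, were tested for 32 of 34 listed. Their median was -0.70 for OAT-1746 against CTR, with 30 of 32 below 0 and 10 lower at an unadjusted p under 0.05 (16.2% of all genes were lower at that p). edgeR called 0 of them and DESeq2 called 6, all lower, beside 7.52% of all genes lower by DESeq2. The median was -0.28 without OAT-1746 replicate 2. Cd74, the MHC class II invariant chain and the most abundant of the list, had 13815 and 7615 CPM in CTR, 4426 and 3999 in OAT-1746, 6278 and 8991 in anti-PD-1, and 6138, 11748 and 12277 in COMB. It was below both CTR libraries in each OAT-1746 library, as were 2 of the 10 members (Gbp3 and Iigp1) and 32.1% of all genes. The list's median was 0.11 in anti-PD-1 and 0.14 in COMB against CTR, with 0 genes called by either tool. At an unadjusted p under 0.05 in edgeR there were 0 and 2 of the list, beside 5.12% and 6.58% of all genes. Nos2, the inducible nitric oxide synthase, had 16.9 and 19.5 CPM in CTR, 28.9 and 16.5 in OAT-1746, 16.0 and 70.9 in anti-PD-1, and 23.0, 184 and 210.2 in COMB, where replicate 1 again lay below replicates 2 and 3.

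Between COMB and OAT-1746, 6 of the 32 rose in edgeR's test and DESeq2 called 18, all higher, beside 6.84% and 13.2% of all genes called higher, with a median of 1.06. The 6 genes were Cd74, H2-Aa, H2-Ab1, H2-Eb1, Psmb8 and Psme2, named because their number was small, after their values were seen. Of these, H2-Ab1 had a log2 fold change of -1.60 in OAT-1746 against CTR (standard error 0.42, adjusted p = 0.0697 in edgeR). The calls between COMB and OAT-1746 depended on the fit. Of 20 alternatives, 10 lost Cd74 and Psme2, 9 lost H2-Ab1 and Psmb8, and 5 lost H2-Aa and H2-Eb1. All 6 were lost with only the groups compared and with the replicate number as a block. Every alternative kept their direction, the lowest log2 fold change being 0.88 (Psmb8). Without OAT-1746 replicate 2, 0 of the list were called between COMB and OAT-1746 and the median was 0.57, and without COMB replicate 2 or 3, 0 were called.

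Type I interferon-stimulated genes were included because they overlap with the GTPases in their induction, and 24 of 26 listed were tested. Their medians were -0.65 (24 of 24 below 0) in OAT-1746, 0.52 (24 of 24 above 0) in anti-PD-1 and -0.38 (23 of 24 below 0) in COMB, each against CTR. edgeR and DESeq2 called 0 of them in each, and 0 had an unadjusted p under 0.05. Isg15 had 215 and 248 CPM in CTR, 253 and 35.2 in OAT-1746, 549 and 454 in anti-PD-1, and 200.2, 212 and 199 in COMB. In COMB, replicates 2 and 3 had members' medians of 0.50 and 0.54 above the CTR mean, whereas the median of the type I genes was -0.39 and -0.38 in the same libraries. In COMB replicate 1 the lists were close, at -0.33 and -0.34. Between COMB and anti-PD-1 the type I median was -0.83, with 0 genes called by edgeR or DESeq2. At an unadjusted p under 0.05 in edgeR, where 5.26% of all genes were lower, 9 of the 24 type I genes were lower. edgeR called 8 of them without OAT-1746 replicate 2 (beside 41 of 12837 genes, 0.319%) and 9 without OAT-1746 replicate 1 (beside 52 of 12847 genes, 0.405%). The members' median in this contrast was -0.044, and the difference between the lists was not tested. Without OAT-1746 replicate 2 the type I median in OAT-1746 was 0.090.

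**Figure D4:**
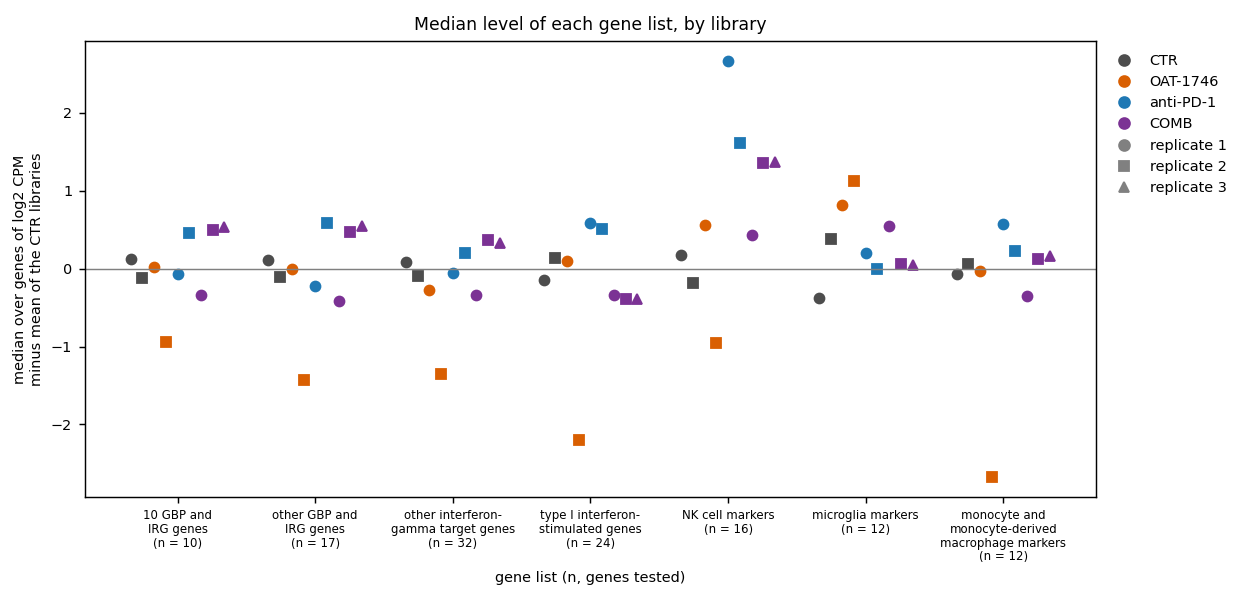
Median log2 difference from the CTR mean for the members and the other gene lists, by library. In OAT-1746 replicate 2 the members (-0.95), other interferon-gamma targets (-1.36), type I genes (-2.20) and monocyte markers (-2.67) are all low. In COMB replicates 2 and 3 the members lie above 0 and the type I genes below 0.

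Of 23 genes whose products act with GBPs and IRGs on vacuoles or in inflammasomes, edgeR called 0 in the comparisons with CTR. At an unadjusted p under 0.05 there were 5 for OAT-1746 (4 higher, 1 lower), 3 for anti-PD-1 and 3 for COMB, beside 32.3%, 5.12% and 6.58% of all genes, and DESeq2 called 3, 0 and 0. Between COMB and OAT-1746, Gabarapl2, Casp1 and Pycard rose and Aim2 and Nlrp3 fell in edgeR's test, 5 of 23 beside 15.8% of all genes. Nlrp3 was named for its log2 fold change in OAT-1746 against CTR (0.92), a contrast with the same OAT-1746 libraries. The others were named after their values were seen. Nlrp3, an inflammasome sensor, fell by 1.40 (standard error 0.22, adjusted p = 0.0160 in edgeR). With all libraries in the fit this was the opposite direction to the members in that contrast. Without OAT-1746 replicate 2, Gbp7, Gbp9 and Irgm2 had negative values there as well. None of the 5 was called without OAT-1746 replicate 2, without COMB replicate 2 or without COMB replicate 3 (0 called by edgeR in each case). Their direction was kept under every alternative, with log2 fold changes of -1.63 to -1.12 for Nlrp3 and -0.99 to -0.73 for Aim2. Of 20 alternatives, 11 lost the call of Gabarapl2, 9 that of Pycard and 5 those of Aim2, Casp1 and Nlrp3. All 5 genes also lost it with only the groups compared and with the replicate number as a block.

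Markers of cell types were compared with the members. The counts of each marker list stand beside these shares of all genes. At an unadjusted p under 0.05 in edgeR they were 32.3% for OAT-1746, 5.12% for anti-PD-1 and 6.58% for COMB against CTR. DESeq2 called 15.9%, 0.112% and 0.279% in the same order. In COMB against OAT-1746, 37.1% had that p, edgeR called 15.8% and DESeq2 24.4%. In bulk RNA, fewer cells of a type and less RNA per cell cannot be told apart. Of 12 markers of monocytes and monocyte-derived macrophages, all 12 had negative values in OAT-1746 against CTR, with a median of -0.88. That median rested on OAT-1746 replicate 2 and was -0.026 without it. Their summed level was 8757 and 7718 CPM in CTR, 5940 and 876 in OAT-1746, 7038 and 9044 in anti-PD-1, and 5875, 9278 and 9692 in COMB. OAT-1746 replicate 2 and COMB replicate 1, the libraries with the lowest member medians in their groups, were also lowest here. The most abundant marker, Tgfbi, had 2621 and 366 CPM in the OAT-1746 libraries, and no marker was at 0. edgeR called 0 of these 12 (4 at an unadjusted p under 0.05, and 3 by DESeq2). In COMB against OAT-1746, 11 of 12 were positive with a median of 0.63, and edgeR called 1 (higher), with 3 at an unadjusted p under 0.05 and 2 by DESeq2. That median was -0.14 without OAT-1746 replicate 2, with 0 called by edgeR.

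Microglia markers ran the other way. All 12 had positive values in OAT-1746 against CTR, with a median of 0.95 (0.78 without OAT-1746 replicate 2). edgeR called 0, with 12 at an unadjusted p under 0.05 and 10 by DESeq2. In COMB against OAT-1746 all 12 had negative values with a median of -0.71 (-0.55 without OAT-1746 replicate 2). There edgeR called 2, both lower, with 11 at an unadjusted p under 0.05 and 6 by DESeq2, and it called 0 without OAT-1746 replicate 2. The summed level was 14967 and 23848 CPM in CTR, 31803 and 39751 in OAT-1746, 22570 and 18336 in anti-PD-1, and 27584, 20549 and 19375 in COMB, with no marker at 0. OAT-1746 replicate 2 and COMB replicate 1 were the highest libraries of their groups. Mitochondrial genes took 2.22% and 2.04% of counts in OAT-1746 and 0.553% to 1.34% in the other groups. The part of cell composition or RNA quality in the members' values was not tested.

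NK cell markers, as genes of cells that make interferon-gamma, had a summed level of 92.4 and 96.9 CPM in CTR, 133 and 34.2 in OAT-1746, 415 and 244 in anti-PD-1, and 105, 200.2 and 216 in COMB. Anti-PD-1 replicate 1 was highest for these markers and for Igtp, whereas anti-PD-1 replicate 2 was highest for Gbp3, Gbp5, Gbp7 and Gbp9. Klrk1 was the most abundant, and 1 of the 16 markers was at 0 in OAT-1746 replicate 2. In anti-PD-1 against CTR all 16 had positive values, edgeR called 0, 14 passed an unadjusted p of 0.05, and DESeq2 called 5. In COMB against CTR 15 were positive, 5 had an unadjusted p under 0.05, and both tools called 0. In COMB against OAT-1746 also 15 were positive, with a median of 0.90 (0.38 without OAT-1746 replicate 2), 5 at an unadjusted p under 0.05, 0 called by edgeR and 4 by DESeq2. Of 16 T cell markers 13 were tested, with medians of 0.38, 1.70 and 1.21 in the OAT-1746, anti-PD-1 and COMB contrasts with CTR. The anti-PD-1 value rested on replicate 1 (2.04 above the CTR mean, beside 0.025 in replicate 2) and was -0.30 without it. edgeR and DESeq2 called 0, with 1, 4 and 2 at an unadjusted p under 0.05. Their summed level was 15.5 to 45.6 CPM, led by Cd4, and 3 of them were at 0 in CTR replicate 2 and in OAT-1746 replicate 1. Their part in the members' values was not tested.

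Markers of border-associated macrophages (8 genes), neutrophils (10), dendritic cells (9), B cells (3 tested of 7), oligodendrocytes (6), astrocytes (6), endothelial cells (6) and erythroid cells (5) were examined in the same way. Their medians in OAT-1746 against CTR were -0.035, 0.75, -0.24, -0.44, 0.29, 0.41, 0.42 and 0.80 in that order. For B cells and erythroid cells the OAT-1746 libraries lay on opposite sides of CTR (0.74 and -1.94, and -2.23 and 1.74), and without OAT-1746 replicate 2 the medians were 0.49 (4 B cell genes tested in that fit) and -3.09. In anti-PD-1 they were 0.0069, -0.19, 0.096, -0.12, -0.047, 0.30, 0.42 and 0.29, and in COMB 0.068, 0.24, -0.022, 0.34, 0.38, 0.91, 0.60 and 0.34. The anti-PD-1 libraries lay on opposite sides of CTR for 7 of these 8 lists (all but astrocytes), most widely for erythroid cells (1.35 and -1.69). edgeR called 0 of these genes in the comparisons with CTR. At an unadjusted p under 0.05 there were, in the same order, 5, 4, 4, 1, 1, 1, 1 and 0 for OAT-1746, 0 in each list for anti-PD-1, and 0, 3, 0, 0, 0, 4, 3 and 0 for COMB. DESeq2 called 3, 1, 2, 0, 0, 1, 0 and 0 for OAT-1746 and 0 in each list for anti-PD-1 and COMB. Between COMB and OAT-1746 edgeR called 1, 1, 1, 0, 0, 2, 0 and 0 in the same order, and 0 in each of these lists without OAT-1746 replicate 2.

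The members varied together, but not as 1 block. Over 9 libraries the 45 pairs of members had a median Pearson's r of 0.82 in log2 CPM, from 0.24 (Gbp7 and Irgm2) to 0.96 (Gbp2 and Gbp3). Without OAT-1746 replicate 2 the median over 8 libraries was 0.68, from -0.14 to 0.94. The libraries share groups, so these values are a description with no p. Igtp and Irgm2, whose printed promoter stretches differed at 2 of 90 bases, had log2 fold changes of 0.89 and 0.11 in anti-PD-1 against CTR and of 0.95 and 0.19 in COMB against OAT-1746. The difference between the genes was not tested.

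Among 9408 genes with a mean of at least 5 CPM, the pattern most like the mean of the members over 9 libraries was that of Ptpn1, a tyrosine phosphatase (r = 0.991, and 0.968 over 8 libraries without OAT-1746 replicate 2). Other genes near the top of this order were Tapbpl (0.989 and 0.986), Batf2 (0.977 and 0.932), Lrrc8c (0.976 and 0.941), Sdhaf2 (0.976 and 0.922), Tgtp2 (0.974 and 0.918), Tap2 (0.973 and 0.945), Arhgap10 (0.973 and 0.919) and Rnaseh1 (0.973 and 0.946). Batf2 is a transcription factor induced by interferon-gamma, Tap2 and Tapbpl act in MHC class I peptide loading, and Tgtp2 is an IRG. The level of Ptpn1 ranged only from 341 CPM in OAT-1746 replicate 2 to 466 CPM in anti-PD-1 replicate 2.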

How the data were processed

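RNA-seq of sorted CD11b+ cells (poly-A, strand-specific libraries) was analysed in 9 libraries. The authors used Trimmomatic for trimming, STAR for alignment to mm10, Picard for duplicates and HTSeq (reverse stranded) for counting, and deposited raw counts of read pairs. Their annotation release is not given in the sources used here. Of 53801 genes, 53620 were in GENCODE M21 and 181 were not. The 21890 protein-coding genes were kept, and filterByExpr (minimum count 10) left 12538. In R 4.3.3, edgeR 4.0.16 applied TMM and a quasi-likelihood fit of 4 group means to all libraries (common BCV 0.214, prior degrees of freedom 4.15). A call needed an adjusted p under 0.05 (Benjamini-Hochberg, over all tested genes). Standard errors came from log2 fold change and quasi-likelihood F, and 95% intervals from the t distribution. Log2 CPM used a prior count of 2. DESeq2 1.42.0 (Wald test), limma 3.58.1 voom with quality weights (called voom here), other scalings and filters, all gene types, the replicate number as a block, fits of only the groups compared, robust estimation and leaving out each library were alternatives. Scripts were tested on simulated counts. The members and gene lists were chosen with earlier results of these data known. Named were all members, any tested gene of the GBP/IRG and signalling lists and, of other lists, the most abundant gene and up to 4 with the largest log2 fold change against CTR. Single values of 2 listed genes are not reported here. Correlations required a mean of 5 CPM. Figures used Python 3.11.15, pandas 2.3.3 and matplotlib 3.10.9.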

Additional observations from a re-analysis of the deposited data

How the results depend on the processing

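For single members, 1075 values under the alternatives kept their direction and their side of the threshold, 28 kept their direction and passed it, and 87 changed sign. Of the counts and medians over members, 225 stayed and 13 moved. A median counted as moved only where it shifted by at least the SD between replicates of the members' median log2 CPM (0.39 to 0.59 by contrast), so that the shifts without OAT-1746 replicate 2 to 0.23 in COMB against OAT-1746 and to -0.13 in the interaction, a change of sign, are among those that stayed. A count of 0 counted as moved where it became higher. With 2 libraries in most groups, a fit without 1 of them assumes that the lone library varies like the rest, and much rests on OAT-1746 replicate 2. The members had at least 312 counts in each library, while Ifng was near the floor of detection. An effect of sequencing depth on the calls was not tested. The cause of the changes below was not tested, except that leaving out a library leaves fewer samples.

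Members called between COMB and OAT-1746 were 0 in edgeR, 2 with DESeq2, 2 with no low-count filter and 5 with voom (Gbp2, Gbp4, Igtp, Irgm1 and Iigp1). Voom was run only with quality weights, so that its values differ from edgeR's in the method and the weights at once. Which of these moved a value was not tested. Over all genes, calls for COMB against OAT-1746 were 1979 in edgeR (15.8%), 3062 with DESeq2 (24.4%), 2263 of 16075 with no low-count filter (14.1%), 2808 with voom (22.4%) and 30 in a fit of only the groups compared. For OAT-1746 against CTR they were 0, 1996 with DESeq2 and 587 with no filter, and for the interaction 45, 1025 with DESeq2, 428 with voom, 146 with no filter, 24 with library size only and 18 with all genes. For COMB against CTR calls were 0, 35 with DESeq2, 2 with voom, 2 with no filter and 5 with only the groups compared. For COMB against anti-PD-1 they were 0, 47, 35, 2 and 2 in the same order, and for anti-PD-1 against CTR 0 and 14 with DESeq2. DESeq2 was run with its filtering set for 0.05. The list of alternatives named its default filtering and no target, and a run at the function's own 0.1, chosen after seeing the data, called 1972 genes for OAT-1746 against CTR and 1053 for the interaction, left the other counts at 14, 35, 47 and 3062, and called the same number of members (2 between COMB and OAT-1746).

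Log2 values that changed sign, by setting, were these. Library size only gave Irgm2 0.034 in OAT-1746 against CTR, and Igtp -0.035 and Irgm2 -0.016 in the interaction. Gbp9 in anti-PD-1 against CTR was -0.0047 with DESeq2 (either target), -0.0045 with its size factors, -0.00016 with no filter, -0.029 with all genes, -0.0061 with voom and -0.019 with only the groups compared. Gbp2 in COMB against anti-PD-1 was 0.0066 with DESeq2 (either target), 0.0066 with its size factors, 0.0088 with no filter, 0.012 with at least 10 counts in every library, 0.0015 with all genes and 0.23 with voom. Voom also gave Gbp3 0.14 and Irgm1 0.11 in that contrast, Gbp7 0.21 in COMB against CTR and Gbp7 0.22 in the interaction. All genes gave Gbp3 -0.0029 in COMB against CTR.

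Same-numbered libraries had correlations of -0.349 to 0.0999 in their deviations from group means. In a group of 2 libraries the deviations mirror each other, so few of these correlations are independent. They do not decide whether the numbers pair the samples. With the replicate number as a block, COMB against CTR gave Gbp3 -0.11 and Gbp5 -0.018, COMB against anti-PD-1 gave Gbp4 -0.053 and Irgm2 -0.0096, and the interaction gave Igtp -0.067. The block called 0 members in every contrast, and over all genes 2 for COMB against OAT-1746 and 0 for the interaction.

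Leaving out 1 library at a time gave these ranges. In OAT-1746 against CTR, members called ranged from 0 to 4 and their median from -0.96 to 0.026, Gbp2 from -1.88 to 0.27, Gbp7 from -0.83 to 0.13, Igtp from -0.64 to 0.076, Irgm1 from -0.97 to 0.11 and Irgm2 from -0.39 to 0.24. In anti-PD-1 against CTR the median ranged from -0.086 to 0.50, Gbp3 from -0.18 to 0.26, Gbp4 from -0.28 to 0.89, Gbp7 from -0.37 to 0.88, Gbp9 from -0.29 to 0.25 and Iigp1 from -0.53 to 0.33. In COMB against CTR the median ranged from 0.15 to 0.49, Gbp3 from -0.13 to 0.22, Gbp5 from -0.051 to 0.36, Gbp7 from -0.39 to 0.40 and Irgm2 from -0.0096 to 0.29. In COMB against anti-PD-1 the median ranged from -0.19 to 0.20, Gbp2 from -0.22 to 0.26, Gbp3 from -0.25 to 0.19, Gbp4 from -0.29 to 0.87, Gbp5 from -0.50 to 0.13, Gbp7 from -0.93 to 0.32, Gbp9 from -0.46 to 0.076, Igtp from -0.32 to 0.067, Irgm1 from -0.21 to 0.22 and Irgm2 from -0.12 to 0.21. In COMB against OAT-1746, members called ranged from 0 to 7 and their median from 0.23 to 1.39, Gbp7 from -0.10 to 0.77, Gbp9 from -0.13 to 0.72 and Irgm2 from -0.075 to 0.53. In the interaction, members called ranged from 0 to 3 and their median from -0.13 to 0.83, Gbp2 from -0.26 to 1.87, Gbp5 from -0.088 to 0.68, Gbp7 from -0.61 to 0.64, Gbp9 from -0.13 to 0.72, Igtp from -0.23 to 0.46, Irgm1 from -0.13 to 0.94 and Irgm2 from -0.18 to 0.42. Calls over all genes for COMB against OAT-1746 ranged from 5 (without COMB replicate 3) to 4033 (without OAT-1746 replicate 1).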
